A study of Mus musculus with 16 samples.

Results

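The genes described here carry out the interferon response and class I antigen presentation, and were read in mouse embryonic fibroblasts with and without Hmgb1, the gene of an abundant DNA-bending chromatin protein. They are 42 genes chosen by name, and every probe whose symbol, current or older, is one of the 42 was taken. The array had 66 probes for 41 of them, out of 25697 probes in all, and none for Ifi44. Of these, 46 probes of 31 genes were detected on every array of at least 1 group (detection p under 0.01) and were tested, among 12078 tested probes of 8428 genes. RNA was measured once per culture on Illumina bead arrays, 16 in all. KO cells were homozygous for the Hmgb1 deletion and Wt cells carried both copies. KO_cycling and Wt_cycling were unsynchronised cultures with 3 arrays each, KO_G1 and Wt_G1 were synchronised in G1 with 3 arrays each, and KO_S and Wt_S were synchronised in S with 2 arrays each. How the cells were synchronised is not given in the sources used here. Each KO and Wt pair came from embryos of a single heterozygous mother mated to a heterozygous male, 3 mothers gave the lines, and all cells were fibroblasts cultured up to passage 3, with no other treatment named. Whether the same lines were used in each phase is not given in the sources used here.

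An interferon binds its receptor on the cell surface, and Janus kinases inside the cell then pass the signal to transcription factors. A complex that holds STAT2 and IRF9 binds the interferon-stimulated response element (ISRE) in the promoters of interferon-induced genes, while the interferon gamma arm acts through the gamma-activated site (GAS) and switches on IRF1. The induced proteins degrade viral RNA, block viral entry and budding, attack vacuoles that hold microbes, and load peptides onto class I molecules for display to T cells. Fibroblasts have receptors for type I interferons and for interferon gamma and keep a low level of this program running without infection.

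The promoters of the genes were searched for the response elements of the program. RefSeq promoter windows of GRCm38.p6, from 250 bases before to 50 bases after the start of each gene, were found for 34 of the 42 genes. No window was found for Ifi27l2b, Oas2, Usp18, Mx1, Mx2, Parp14, Iigp1 and Ccl5, so these were not searched. Of them Mx2, Ifi27l2b and Oas2 passed a test between phases or pairs. The ISRE core, searched as GAAA, any 2 bases and GAAA again on both strands, was present in 18 of these 34 genes (52.9%) and in 3.99% of the 27025 genes that have such a window. The GAS core, searched as TTCNNNGAA on both strands, was present in 9 of the 34 (26.5%) and in 9.55% of all genes, and in 2 genes, Bst2 and Ifitm3, a match to one overlapped a match to the other. A match is a description of the letters and not evidence of binding in these cells. The upstream stretches below are those of the genes that passed a test between phases or pairs and have an ISRE core wholly before their start, written 5′ to 3′ on the gene's strand with the ISRE core matches in capitals.
Rsad2, chr12:26456503-26456672, minus strand: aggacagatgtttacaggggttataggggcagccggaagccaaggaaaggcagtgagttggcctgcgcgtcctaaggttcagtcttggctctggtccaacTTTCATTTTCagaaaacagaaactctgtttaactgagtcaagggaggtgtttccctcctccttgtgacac
Gbp2, chr3:142620504-142620662, plus strand: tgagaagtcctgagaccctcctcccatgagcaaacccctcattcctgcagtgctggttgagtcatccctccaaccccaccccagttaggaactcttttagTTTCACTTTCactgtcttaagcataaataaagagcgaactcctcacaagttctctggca
Irgm1, chr11:48871421-48871550, minus strand: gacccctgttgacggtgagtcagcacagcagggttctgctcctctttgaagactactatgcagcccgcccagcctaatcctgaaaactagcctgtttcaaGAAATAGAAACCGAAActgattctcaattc
Cxcl10, chr5:92349033-92349139, minus strand: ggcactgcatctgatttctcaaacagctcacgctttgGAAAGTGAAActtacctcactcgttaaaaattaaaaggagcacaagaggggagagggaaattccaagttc
Isg15, chr4:156200819-156200996, minus strand: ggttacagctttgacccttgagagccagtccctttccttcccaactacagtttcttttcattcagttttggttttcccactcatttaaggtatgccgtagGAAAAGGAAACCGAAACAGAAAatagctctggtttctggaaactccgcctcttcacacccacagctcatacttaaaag
The Isg15 and Irgm1 stretches hold overlapping matches that form 1 capital run each, and Rsad2, Gbp2 and Cxcl10 hold 1 match each. Irf1, which is classed with interferon gamma targets, had a GAS core and no ISRE core in its windows.

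Arrays were background-corrected and quantile normalised, and all levels below are log2 values of that scale, on which a value of about 5.16 to 5.97, depending on the array, is the lowest of any detected probe. Mean intensity per array ran from 394 to 776. KO_G1 replicate 1 had the lowest mean intensity, and it and Wt_cycling replicate 3 stood apart from their groups, with correlations down to 0.881 and 0.941 among replicates, so results that rest on them are given with and without both. The lowest correlation among Wt_G1 replicates was 0.948, not far above, so the comparisons were also run without the whole of G1 pair 1 and cycling pair 3. The Y-chromosome gene Eif2s3y was detected on 4 of 6 cycling, 2 of 6 G1 and 4 of 4 S arrays, and Xist, which is transcribed from the inactive X chromosome of female cells, on exactly the other 6, so the phases differ in the sex of their cells. Both arrays of each pair were alike. Cycling pairs 1 and 2, G1 pair 1 and both S pairs had Eif2s3y, so number 2 does not mark the same lines in every phase. The single Hmgb1 probe ran from 4.48 to 5.03 on KO arrays and from 4.57 to 5.75 on Wt arrays, and was detected on 1 Wt array, so it could not check the genotype labels. Of 9 fibroblast markers with a probe, 8 were detected on every array and the ninth, Lum, on 13. Leukocyte markers were also present. Of 12 with a probe, 5 were detected on every array, among them Lyz2 at 11.34 to 14.34, while Nkg7 was detected on none, Itgam on 1 and Spi1 on 3. Their summed intensity was 21000, 22200 and 8490 on KO_cycling and 12100, 12900 and 12100 on Wt_cycling arrays 1 to 3. In G1 it was 39000 on KO_G1 replicate 1 and 63300 on Wt_G1 replicate 1, against 10800 to 11300 on the other 4 G1 arrays, and in S it was 36400 and 33500 on KO and 43400 and 43000 on Wt arrays. In RNA from a whole culture, more cells of a type and more RNA per cell cannot be told apart.

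The genes spanned a wide range of levels. Ifitm3, which blocks viral fusion, averaged 13.49 over the 16 arrays, B2m, the light chain of class I molecules, 13.41 and the GTPase gene Irgm1 13.10 at its brightest probe. The double-stranded RNA kinase gene Eif2ak2 averaged 10.79 and the transcription factor gene Irf1 9.99. Ifit2, an IFIT family member, averaged 7.45, Ifi35 7.32 and the GTPase gene Igtp 6.07, and none of these 3 passed in any comparison with all arrays. At the other end Oas2, Mx2, Ifi27l2b and Tap1 averaged 5.04 to 5.36, near background on most arrays. Levels of different probes depend on the probe as well as the transcript, so this order is not one of transcript number. The 10 genes with a probe but no tested one were Ifih1, Irf7, Socs1, Ifit1, Oas1a, Mx1, Ifitm1, Xaf1, Iigp1 and Cxcl9. Ifih1, the cytosolic RNA sensor MDA5, was detected on 4 arrays (Wt_cycling replicate 3, Wt_G1 replicate 1, KO_S replicate 1 and Wt_S replicate 2), and Irf7, Socs1, Ifit1, Oas1a, Mx1, Xaf1 and Iigp1 on none.

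**Figure D1:**
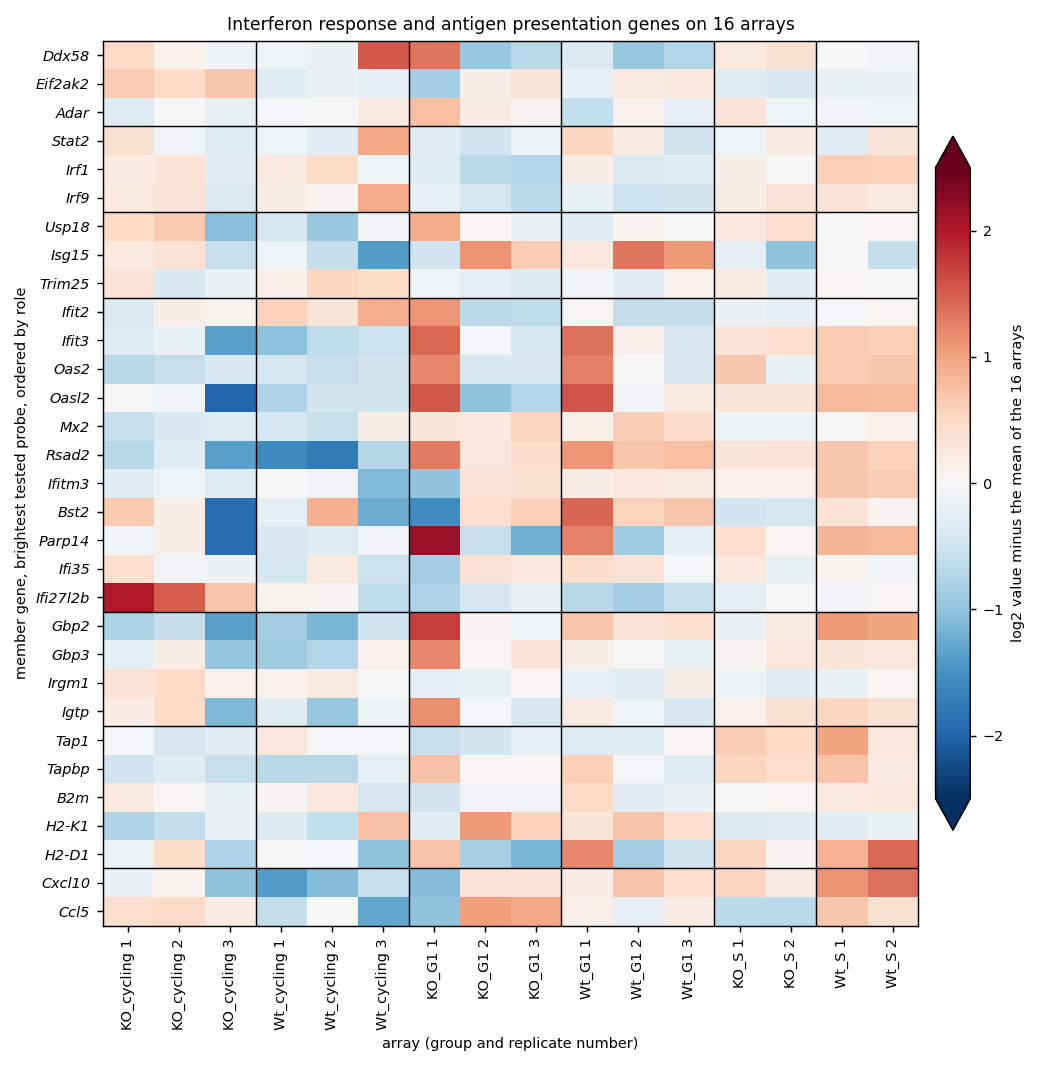
Each row is a gene's brightest tested probe, in the order of the roles in the text, and each column an array, grouped as KO_cycling, Wt_cycling, KO_G1, Wt_G1, KO_S and Wt_S. Colour gives the log2 value minus the mean of the 16 arrays. The columns KO_G1 1 and Wt_G1 1 share high Oas2, Oasl2, Parp14 and Ifit3, and Rsad2 and Gbp2 are lower in the cycling columns than in the G1 and S columns.

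The genotype comparison asks whether cells without Hmgb1 hold a different level of the program. One gene passed in one phase. Ifi27l2b, a member of the interferon-induced Ifi27 family of small membrane proteins, read 7.31, 6.82 and 5.99 in KO_cycling cells and 5.39, 5.38 and 4.67 in Wt_cycling cells. All KO arrays lay above all Wt arrays, and the probe was detected on each KO array and on no Wt array. The difference was 1.56 ± 0.30 (SE, 3 arrays each, limma adjusted p = 0.0496), and measured against the detection floor of the arrays KO cells were at least 2.18-fold above Wt cells. In G1 the values were 4.54, 4.88 and 5.15 in KO cells and 4.62, 4.46 and 4.72 in Wt cells, and in S they were 5.07 and 5.30 in KO cells and 5.24 and 5.34 in Wt cells, and the probe was detected on no G1 array, on no KO_S array and on both Wt_S arrays. Over all tested probes 0.315% passed in cycling cells, and 0.124% passed as higher in KO. With each pair as a block the cycling call stayed (limma adjusted p = 0.00984) and the mean over the 3 phases, 0.57 ± 0.12, passed as well (limma adjusted p = 0.0385, against 0.157 without the block). The call in cycling cells ended under median scaling (limma adjusted p = 0.068), with the authors' deposited table (0.0977), without background correction (0.0989), without the detection filter (0.0728), with the replicate number as a block (0.0742) and with slide as a block (0.0675). It also ended when any 1 of 14 of the 16 arrays was left out. The exceptions were KO_cycling replicate 3 (limma adjusted p = 0.00794) and KO_G1 replicate 1 (0.023). Without KO_cycling replicate 1, which had the highest value, the difference was 1.25 (limma adjusted p = 0.249). KO_cycling replicates 1 and 2, which are the highest for this gene, also had the highest leukocyte marker sums of the cycling arrays. The part of leukocyte RNA in the result was not tested.

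No gene of the set passed between KO and Wt cells in G1 (0.290% of all probes did), in S (0.232%) or averaged over the 3 phases (2.06%). At an unadjusted p under 0.05 the counts of the 46 probes were 3 in cycling cells, 1 in G1, 3 in S and 4 in the mean, against 10.4%, 9.09%, 5.31% and 12.8% of all probes. Without both arrays that stood apart 3 of the 46 probes passed in cycling cells (2.26% of all probes), 1 in G1 (1.12%), 3 in S (3.98%) and 4 in the mean (9.76%). That fit leaves the partners of the 2 arrays in, so it breaks 2 pairs. The genes that passed in it were Ifi27l2b, Eif2ak2 (0.83, cycling), Gbp3 (1.34 in cycling and 0.43 in the mean, probe ILMN_2918002), Gbp2 (-1 in S and -0.47 in the mean), Ccl5 (0.97 in G1 and -1.20 in S), Ifitm3 (-0.54 in S) and Irf1 (-0.55 and -0.44 in the mean). Ifi27l2b kept its cycling call there at 1.33 (limma adjusted p = 0.0462). Without the whole of G1 pair 1 and cycling pair 3, which leaves 2 arrays per group, 12 of the 46 probes passed in cycling cells, all higher in KO (9.75% of all probes), 2 in G1 (4.21%), 8 in S, of which 7 were lower in KO (12% of all probes), and 14 in the mean (19.2%). Among those in cycling cells were Usp18 at 1.53 ± 0.16, Rsad2 at 1.20 ± 0.14, Cxcl10 at 1.24 ± 0.18 and Gbp3 at 1.46 ± 0.18, probes ILMN_2433990, ILMN_1225204, ILMN_3142803 and ILMN_2918002. The genotype counts thus depend on which arrays are kept, for the whole array as for these genes.

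Among the factors, Irf1 gave the smallest p of the set in the mean over phases. Its brightest probe, ILMN_2834777, read 10.19, 10.32 and 9.72 in KO_cycling, 10.24, 10.44 and 9.88 in Wt_cycling, 9.66, 9.34 and 9.26 in KO_G1, 10.16, 9.63 and 9.69 in Wt_G1, 10.14 and 9.98 in KO_S and 10.58 and 10.56 in Wt_S. KO was the lower array in 8 of 8 pairs at this probe, as for 2.56% of all tested probes, and in 6 of 8 at each of the other 3 tested probes of Irf1. The differences of its probes in the mean were -0.48 ± 0.15 for ILMN_2599782, -0.36 ± 0.12 for ILMN_2649068, -0.34 ± 0.14 for ILMN_2834777 and -0.32 ± 0.19 for ILMN_2649067 (limma adjusted p of 0.133, 0.160, 0.274 and 0.559). In S the first 3 of these read -0.79 ± 0.29, -0.79 ± 0.24 and -0.51 ± 0.27, and no KO value of any of the 4 probes reached a Wt value. None of these passed with all arrays. ILMN_2649068 and ILMN_2649067 were tested only because both Wt_S arrays detected them. No KO_S array detected either probe, so the filter itself favoured their separation in S. Stat2 and Irf9, whose products belong to the ISRE-binding complex, had no p among the 4 smallest in any phase.

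The next smallest p-values belonged to genes of several roles. Eif2ak2, the kinase PKR that halts translation on double-stranded RNA, read 11.43, 11.26 and 11.47 in KO_cycling against 10.49, 10.64 and 10.57 in Wt_cycling, a difference of 0.82 ± 0.25 (limma adjusted p = 0.250) with no overlap. In S its KO values of 10.46 and 10.39 lay just below the Wt values of 10.61 and 10.64. Ccl5, a chemokine for T cells and monocytes, read 6.80, 6.87 and 6.58 in KO_cycling against 5.79, 6.41 and 5.09 in Wt_cycling, and 5.74 and 5.72 in KO_S against 7.07 and 6.77 in Wt_S. Its differences of 0.99 ± 0.45 in cycling cells and -1.19 ± 0.55 in S therefore had opposite signs (limma adjusted p of 0.468 and 0.928). Trim25, a ubiquitin ligase that activates the RNA sensor RIG-I, differed by -0.44 ± 0.22 in cycling cells (limma adjusted p = 0.509). Its probe was tested only because every Wt_cycling and every Wt_S array detected it, so the filter itself favoured a lower KO value there. In G1 the RNA-editing enzyme gene Adar differed by 0.58 ± 0.23 at probe ILMN_3021272 (limma adjusted p = 0.436). Its other tested probe, ILMN_3093622, went the other way, with means near background of 4.83 in KO_G1 and 5.05 in Wt_G1. Also in G1 the guanylate-binding protein gene Gbp3 differed by 0.78 ± 0.47 and Bst2, whose product tethers budding virus, by -1.08 ± 0.68 (limma adjusted p of 0.618 and 0.636). In the mean over phases Usp18, which removes ISG15 from proteins and dampens the receptor, differed by 0.51 ± 0.25 and 0.55 ± 0.28 at ILMN_2433990 and ILMN_3054914 (limma adjusted p of 0.436 and 0.458).

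The set leaned to lower values in KO cells in S. Of the 31 tested genes, 25 were lower in KO_S than in Wt_S at their brightest probe, with a median difference of -0.19, against a median of 0.03 over all tested genes, of which 53.3% were higher in KO. Both KO_S arrays lay below both Wt_S arrays for 25 of the 46 probes (54.3%), where 28.4% of all tested probes did so, and above them for 6 (13.0%, against 34.9%). Among the 25, the probe of Mx2 and probes ILMN_2649068 and ILMN_2649067 of Irf1 were tested only through Wt_S. In cycling cells all KO arrays lay above all Wt arrays for 3 probes (11% of all probes) and below for 2 (11.4%), and in G1 for 1 (6.78%) and 0 (5.33%). Gbp2, a GTPase that attacks microbial vacuoles, read 8.95 and 9.31 in KO_S against 10.16 and 10.09 in Wt_S, a difference of -0.99 ± 0.48. Cxcl10, a chemokine for activated T cells, read 6.59 and 6.25 in KO_S against 7.17 and 7.43 in Wt_S, a difference of -0.88 ± 0.47. Neither passed with all arrays (limma adjusted p of 0.964 and 1), and with 2 arrays per group the lean is a description of these 4 arrays. Under median scaling of the arrays 28 of 31 genes were lower and the median was -0.27. Without background correction it was 25 of 31 and -0.12. The leukocyte marker sum was also lower in KO_S than in Wt_S (33500 to 36400, against 43000 to 43400), and its part in the lean was not tested. In the other phases the median was 0.06 in cycling cells, with 16 of 31 higher in KO, and -0.05 in G1, with 11 of 31 higher.

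**Figure D2:**
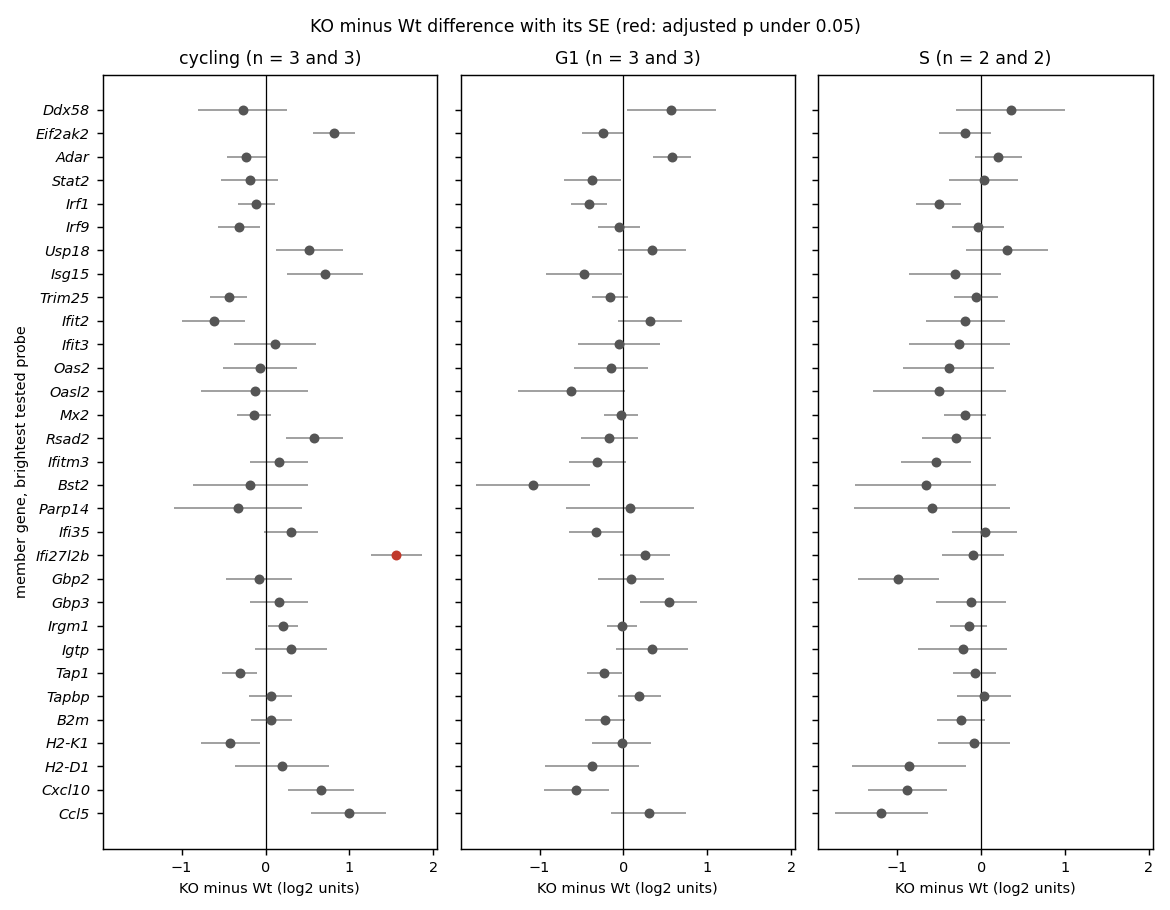
Points give the KO minus Wt difference of each gene's brightest tested probe in log2 units, with bars of 1 SE, in cycling, G1 and S cells. Ifi27l2b at 1.56 in cycling cells is the only red point, and 25 of the 31 points lie left of 0 in S.

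Whether the genotype difference itself changed between phases was tested as an interaction. No gene of the set passed for G1 against cycling (0.00828% of all probes, limma) or for S against G1 (0% of all probes, limma), and 4 and 1 of the 46 probes had an unadjusted p under 0.05, against 9.44% and 1.52% of all probes. The largest of these were Ifi27l2b at -1.30 ± 0.43 and Cxcl10 at -1.23 ± 0.55 in G1 against cycling. Without the arrays that stood apart, Ccl5 passed for S against G1 at -2.17 ± 0.29 (limma adjusted p = 0.015), as 0.879% of all probes did. Without G1 pair 1 and cycling pair 3, 8 probes passed for G1 against cycling (1.77% of all probes), those of Rsad2, Oasl2, Cxcl10, Usp18 at 2 of its 3 tested probes, Gbp3, Ifi27l2b and Eif2ak2, and 2 for S against G1 (2.95%), those of Ccl5 and Ifitm3. That fit leaves only Xist arrays in G1 and only Eif2s3y arrays in cycling and S. Its interactions with G1 cannot be told apart from the sex of the cells. In 4 of the 46 probes, those of Eif2ak2, Isg15, Ifi27l2b and Ccl5, KO was above the paired Wt array in every cycling pair and below it in every S pair, as for 5.63% of all probes.

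More genes of the set passed between phases. In G1-synchronised cells, averaged over the genotypes, 11 of the 31 genes differed from cycling cells: Rsad2, Gbp2, Isg15, Cxcl10, H2-K1, Mx2 and Tapbp were higher, and Irgm1, Ifi27l2b, Irf9 and Irf1 lower. These are 12 of the 46 probes, 7 higher and 5 lower. Of all tested probes 19.8% passed, 9.72% as higher and 10.1% as lower. The median over the 31 genes was 0.33, against -0.03 over all tested genes. By role, 3 of 11 tested antiviral effectors passed, 2 of 4 GTPases, 2 of 3 transcription factors, 2 of 5 antigen presentation genes, 1 of 3 feedback genes, 1 of 2 chemokines and 0 of 3 sensors and kinases.

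Rsad2 encodes viperin, a radical SAM enzyme whose product stops viral RNA synthesis. It read 6.11, 6.50 and 5.44 in KO_cycling and 5.21, 5.03 and 6.09 in Wt_cycling, 8.11, 7.09 and 7.25 in KO_G1 and 7.90, 7.49 and 7.56 in Wt_G1, and 7.10 and 7.15 in KO_S and 7.47 and 7.38 in Wt_S. Every G1 and S array lay above every cycling array. G1 exceeded cycling by 1.84 ± 0.24 (3.57-fold, 6 arrays each, limma adjusted p = 0.000147) and S exceeded cycling by 1.54 ± 0.26 (limma adjusted p = 0.00329). In the tests within a genotype, 5 of the 46 probes passed between G1 and cycling in KO cells (8.54% of all probes) and 6 in Wt cells (10.4%), and between S and cycling 1 passed in KO cells (1.71%) and 3 in Wt cells (2.47%). Within each genotype Rsad2 in G1 exceeded cycling by 1.46 ± 0.34 in KO and 2.21 ± 0.34 in Wt cells, and both passed (limma adjusted p of 0.016 and 0.00136). The probe was detected on 3 of the 6 cycling arrays, so the fold includes values at background. Its promoter stretch above holds 1 ISRE core.

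Gbp2 read 8.31, 8.49 and 7.74 in KO_cycling and 8.22, 7.96 and 8.60 in Wt_cycling. In G1 it read 10.83, 9.16 and 8.98 in KO and 9.79, 9.43 and 9.50 in Wt cells, and the S values are given above. No G1 or S array overlapped a cycling array. G1 exceeded cycling by 1.39 ± 0.28 (2.63-fold, limma adjusted p = 0.00308) and S exceeded cycling by 1.41 ± 0.31 (2.65-fold, limma adjusted p = 0.0135). KO_G1 replicate 1 was the highest of the 16 arrays, and without it and Wt_cycling replicate 3 the G1 difference was 1.19 ± 0.15.

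Mx2 encodes a dynamin-like GTPase that binds viral nucleocapsids. Its probe was detected on no cycling array (4.61, 4.81 and 4.87 in KO, 4.75, 4.63 and 5.34 in Wt) and on 4 of 6 G1 arrays (5.49, 5.46 and 5.73 in KO, 5.32, 5.8 and 5.64 in Wt). The difference was 0.74 ± 0.14 (limma adjusted p = 0.00288), but measured against the detection floor it is only at least 1.03-fold higher in G1. In S the values were 5.07 and 5.06 in KO and 5.21 and 5.30 in Wt cells.

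Isg15, the ubiquitin-like protein that is conjugated to targets during the response, read 7.66, 7.79 and 6.84 in KO_cycling and 7.31, 6.83 and 6.03 in Wt_cycling. In G1 it read 6.92, 8.54 and 8.05 in KO and 7.68, 8.77 and 8.49 in Wt cells, and in S 7.19 and 6.42 in KO and 7.41 and 6.83 in Wt cells. G1 exceeded cycling by 1 ± 0.32 (limma adjusted p = 0.0418) with overlap, and both arrays of G1 pair 1 were low. This test counted the KO and Wt arrays of a pair as separate, although Isg15 passed the F-test of pairs given below. Isg15 read -1.11 ± 0.36 in S against G1 and did not pass (limma adjusted p = 0.061). The promoter of Isg15 shown above has 3 overlapping ISRE cores.

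Cxcl10 read 5.90, 6.15 and 5.04 in KO_cycling and 4.65, 4.96 and 5.50 in Wt_cycling. In G1 it read 4.96, 6.41 and 6.39 in KO and 6.23, 6.77 and 6.45 in Wt cells. G1 exceeded cycling by 0.83 ± 0.27 (limma adjusted p = 0.0458), and S exceeded cycling by 1.49 ± 0.30 (limma adjusted p = 0.00962) with no overlap. The probe was detected on 2 of 3 KO_cycling and 1 of 3 Wt_cycling arrays, so these differences include values at background. Within Wt cells G1 and S each passed against cycling (1.45 ± 0.39 and 2.26 ± 0.43), and within KO cells neither did. The difference of these differences between the genotypes was -1.23 ± 0.55 for G1 and did not pass with all arrays. Without G1 pair 1 and cycling pair 3 it was -1.45 ± 0.26 and passed (limma adjusted p = 0.0362). There G1 has only Xist arrays and cycling only Eif2s3y arrays, so phase and the sex of the cells cannot be told apart.

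In antigen presentation, H2-K1, a class I heavy chain, read 6.88, 7.05 and 7.50 in KO_cycling, 7.31, 7.03 and 8.37 in Wt_cycling, 7.38, 8.70 and 8.22 in KO_G1, 7.95, 8.35 and 8.06 in Wt_G1, 7.29 and 7.37 in KO_S and 7.36 and 7.48 in Wt_S. G1 exceeded cycling by 0.75 ± 0.25 (limma adjusted p = 0.0491). Class I heavy chain genes are alike in sequence, so a probe may read more than 1 of them. Tapbp, which encodes tapasin, the bridge between class I molecules and the peptide transporter, read 5.44, 5.64 and 5.36 in KO_cycling and 5.26, 5.26 and 5.75 in Wt_cycling. It read 6.68, 5.99 and 6 in KO_G1, 6.54, 5.91 and 5.64 in Wt_G1, 6.49 and 6.37 in KO_S and 6.65 and 6.15 in Wt_S. G1 exceeded cycling by 0.68 ± 0.19 and S exceeded cycling by 0.96 ± 0.21 (limma adjusted p of 0.0213 and 0.013). Tap1, a subunit of the transporter that carries peptides into the endoplasmic reticulum, was high in S. It read 5.34, 4.94 and 5.08 in KO_cycling, 5.64, 5.31 and 5.33 in Wt_cycling, 4.78, 4.91 and 5.15 in KO_G1, 5.05, 5.06 and 5.41 in Wt_G1, 5.97 and 5.86 in KO_S and 6.35 and 5.65 in Wt_S. All 4 S arrays detected it and no G1 array did, and S exceeded G1 by 0.90 ± 0.17, at least 1.29-fold (limma adjusted p = 0.00513). The probe was tested only because the S groups detected it on every array, so its detection in S is no separate result. S also exceeded cycling by 0.69 ± 0.17 (limma adjusted p = 0.0235). The other tested Tapbp probe, ILMN_1226819, did not pass with all arrays and no block, and passed between G1 and cycling without the arrays that stood apart, at 0.75 ± 0.26 (limma adjusted p = 0.0449). It also passed with the number or the line as a block. B2m, the light chain of class I molecules, read 12.94 to 13.89 on its brightest probe, ILMN_1216746, and did not pass in any comparison with all arrays. Without G1 pair 1 and cycling pair 3 this probe was lower in G1 than in cycling cells by -0.29 ± 0.08 and higher in S than in G1 by 0.27 ± 0.08 (limma adjusted p of 0.0197 and 0.0246). In that fit B2m probe ILMN_2739999 was higher in S than in G1 by 0.36 ± 0.07 and than in cycling by 0.22 ± 0.07 (limma adjusted p of 0.0032 and 0.0417). The fit leaves only Xist arrays in G1 and only Eif2s3y arrays in cycling and S. Its differences with G1 therefore cannot be told apart from the sex of the cells.

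Lower in G1 were Irgm1, Ifi27l2b, Irf9 and Irf1. Irgm1 encodes an immunity-related GTPase that governs autophagy and vacuole clearance. Its probe ILMN_1234539 read 10.59, 10.61 and 9.65 in KO_cycling, 10.23, 10.22 and 10.45 in Wt_cycling, 10.02, 8.33 and 8.38 in KO_G1, 8.55, 8.40 and 8.56 in Wt_G1, 9.22 and 9.44 in KO_S and 8.58 and 8.79 in Wt_S. Of the G1 arrays, KO_G1 replicate 1 alone read within the range of the cycling arrays. G1 was lower than cycling by -1.58 ± 0.27 (3.00-fold, limma adjusted p = 0.00104) and S by -1.28 ± 0.30 (limma adjusted p = 0.0182). The other probes of Irgm1 were also lower in G1 but did not pass: ILMN_2711172 by -1.09 ± 0.37 (limma adjusted p = 0.0553) and the brightest, ILMN_2804037, by -0.33 ± 0.12 (0.0791). Both passed without the arrays that stood apart. Ifi27l2b was lower in G1 by -1.20 ± 0.21, at least 1.27-fold (limma adjusted p = 0.0016), from the values given above, and only KO_cycling arrays had detected it in cycling cells.

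Irf9, which carries the ISRE-binding domain of the complex, read 8.33, 8.40 and 7.71 in KO_cycling, 8.25, 8.15 and 9 in Wt_cycling, 7.88, 7.63 and 7.42 in KO_G1, 7.92, 7.54 and 7.62 in Wt_G1, 8.22 and 8.44 in KO_S and 8.42 and 8.32 in Wt_S. It was lower in G1 than in cycling cells by -0.64 ± 0.18 (limma adjusted p = 0.0221) and higher in S than in G1 by 0.68 ± 0.20 (limma adjusted p = 0.0418), where every S array lay above every G1 array. Irf1, from the values given above, was lower in G1 by -0.51 ± 0.16 at ILMN_2834777 and by -0.62 ± 0.17 at ILMN_2599782 (limma adjusted p of 0.0347 and 0.0203), and higher in S than in G1 by 0.69 ± 0.17 and 0.86 ± 0.19 (limma adjusted p of 0.0232 and 0.0128). The other tested probes of each gene, ILMN_2649068 and ILMN_2649067 of Irf1 and ILMN_2636339 of Irf9, did not pass between phases with all arrays. Irf1 and Irf9 were thus lower in G1 than in cycling cells while Rsad2, Gbp2, Mx2 and Isg15 were higher.

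**Figure D3:**
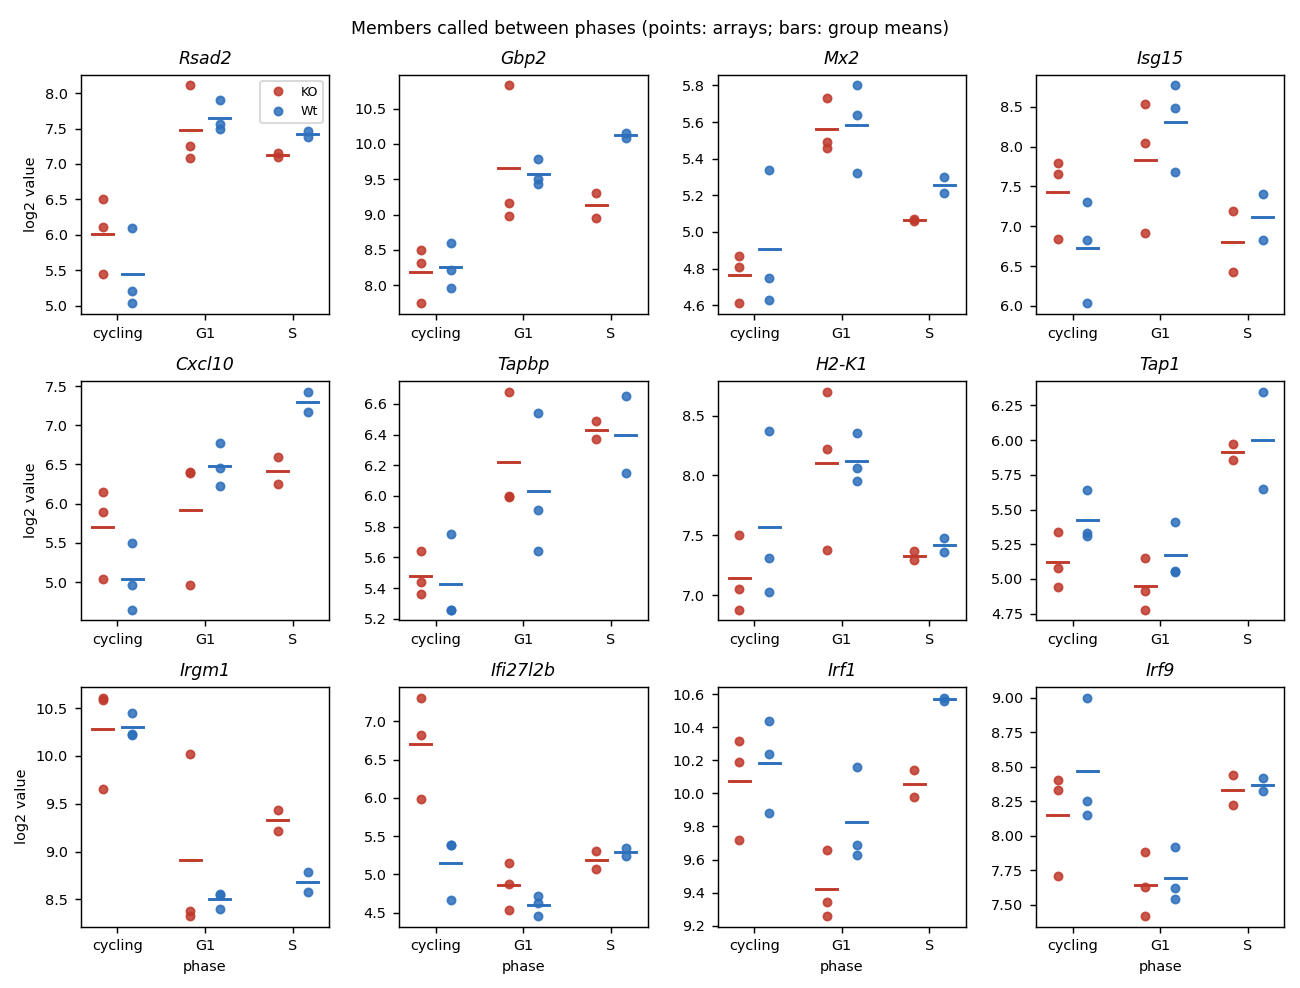
Each panel shows a gene that passed between phases, at the probe given in the text (Irf1 at its brightest), with a point per array, KO left of Wt, and a bar at the group mean, in log2 values. Rsad2 and Gbp2 are higher in G1 and S than in cycling cells in both genotypes, and Irgm1 is lower, with KO_G1 replicate 1 as the exception at 10.02.

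In all, 3 genes passed between S and G1, all higher in S (4 of 46 probes), where 11.4% of all probes passed and 5.72% did so as higher. Between S and cycling cells 5 genes were higher in S and 1 was lower (6 of 46 probes), where 8.11% of all probes passed, 4.66% as higher and 3.45% as lower. One slide carried all cycling arrays together with G1 pair 3, and the other slide carried G1 pairs 1 and 2 with all S arrays. Within the first slide G1 exceeded cycling by 1.67 for Rsad2, 1.02 for Gbp2, 0.85 for Mx2, 1.19 for Isg15, 1.05 for Cxcl10, 0.78 for H2-K1 and 0.37 for Tapbp, and was lower by -1.82 for Irgm1, -0.99 for Ifi27l2b and -0.79 for Irf9. With slide as a block 3 of the 12 probes passed, Rsad2 (limma adjusted p = 0.0118), Irgm1 (0.0134) and Mx2 (0.0291). Within the second slide S exceeded G1 by 1.01 for Tap1 and 0.89 for Irf1 at ILMN_2599782, and both passed with slide as a block (limma adjusted p of 0.00661 and 0.0263). S and cycling arrays shared no slide, and with slide as a block no gene of the set passed between them, although 40 probes of the whole array did. Without KO_cycling replicate 1 or Wt_cycling replicate 1 the G1 count was 7 of the 46 probes (14.6% and 15.9% of all probes passed), and without both arrays that stood apart it was 23 (34.7%). The S against G1 count was 9 without KO_G1 replicate 1 (23.6% of all probes), 7 without Wt_G1 replicate 1 (15%), 2 without Wt_G1 replicate 2 or 3 (7.23% and 6.58%) and 1 without any single S array (3.26% to 3.75%). The S against cycling count was 11 without KO_G1 replicate 1 (17.6%), 2 without KO_S replicate 1, KO_S replicate 2 or Wt_S replicate 1 (2.61% to 2.82%), and 3 without Wt_S replicate 2 (2.67%). Without both arrays that stood apart these counts were 14 (35.5% of all probes) and 16 (29%). The Rsad2, Mx2, Gbp2, Irgm1 and Ifi27l2b calls in G1 and the Tap1 call between S and G1 held in each of the 16 fits that left out 1 array. The Tap1 probe was in the test only through the S groups. The G1 calls of Isg15, Cxcl10 and H2-K1 held in 3 of these 16 fits each, that of Tapbp in 15, that of Irf9 in 13 and those of Irf1 in 4 at ILMN_2834777 and 14 at ILMN_2599782. Under median scaling of the arrays the Isg15, Cxcl10, H2-K1 and Tapbp calls ended, and with the authors' deposited table those of Cxcl10, H2-K1 and Tapbp did. With Eif2s3y detection as a covariate 16 of the 46 probes passed between G1 and cycling (24.7% of all probes), 1 between S and G1, that of Tap1 (10%), and 6 between S and cycling (8.62%). The G1 calls of Isg15 and Cxcl10 (limma adjusted p of 0.0583 and 0.0792) and the S against G1 calls of Irf1 and Irf9 ended with it. On arrays with Eif2s3y the G1 minus cycling difference was 2.29 for Rsad2, 2.06 for Gbp2 and -1.13 for Irgm1 at ILMN_1234539, and on arrays with Xist it was 1.58, 1.10 and -1.63. For Isg15 it was -0.09 on arrays with Eif2s3y and 2.03 on those with Xist, and for Cxcl10 0.18 and 1.23. The leukocyte marker sum differed between phases too, being highest in S and in G1 pair 1, as given above. In G1 pairs 2 and 3, where the sum was 10800 to 11300, Rsad2 lay above every cycling array, whose sums were 8490 to 22200. These G1 pairs had Xist, while cycling pairs 1 and 2 had Eif2s3y. The part of leukocyte RNA in the Rsad2 difference was not tested. Between S and cycling cells the difference was above 0 for 9 of 9 tested leukocyte genes, with a median of 1.20. Over all tested genes it was above 0 for 49.3%, with a median of -0.01. Of these genes Cd14 and Coro1a passed, at 1.39 ± 0.37 and 1.48 ± 0.41. Of 9 tested fibroblast genes, 4 were higher in G1 than in cycling cells (Lum, Dcn, Pdgfra and Col3a1), among them Lum by 5.77 ± 0.29, and Thy1 was lower by -0.62 ± 0.17, and the median over the 9 was 0.02. Their part in the phase differences was not tested.

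The third source of variation was the pair. The genes varied more within groups than most. The median within-group standard deviation of the 31 genes was 0.45, against 0.35 over all tested genes, and 14 of the 31 (45.2%) were above the level that 25% of tested probes exceed. The highest were Parp14 at 1.07, Bst2 at 0.96, Oasl2 at 0.90, H2-D1 at 0.78, Ddx58 at 0.73 and Ifit3 at 0.68. An F-test of the pairs within each phase, which asks whether KO and Wt cells of one mother share high or low values, passed for 3 of the 46 probes (3.39% of all probes): Isg15 (limma adjusted p = 0.0264), H2-D1 (0.0308) and Oas2 (0.043). All 3 calls ended under median scaling (limma adjusted p of 0.0761, 0.101 and 0.156). With the authors' deposited table and without background correction the H2-D1 and Oas2 calls ended (limma adjusted p of 0.145 and 0.222 in each) and the Isg15 call held. Both settings gave the same values for H2-D1 and Oas2, so they are not separate checks.

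Oas2 makes the 2′-5′ oligoadenylates that activate RNase L. In pairs 1, 2 and 3 it read 4.34, 4.46 and 4.65 in KO_cycling and 4.60, 4.46 and 4.58 in Wt_cycling, 6.24, 4.64 and 4.65 in KO_G1 and 6.30, 5.03 and 4.66 in Wt_G1, and 5.71 and 4.87 in KO_S and 5.67 and 5.70 in Wt_S. Both arrays of G1 pair 1 stood above every other array. H2-D1, a second class I heavy chain, read 5.64, 6.23 and 4.99 in KO_cycling and 5.78, 5.72 and 4.75 in Wt_cycling, 6.47, 4.94 and 4.60 in KO_G1 and 6.96, 4.89 and 5.31 in Wt_G1, and 6.28 and 5.84 in KO_S and 6.63 and 7.20 in Wt_S. It was low in both arrays of cycling pair 3 and high in both arrays of G1 pair 1. Isg15 ran the other way in G1, where pair 1 was the lowest in each genotype (6.92 and 7.68). Oasl2, an OAS-like antiviral protein, at 9.77 in KO and 9.79 in Wt cells, Parp14, an ADP-ribosyltransferase, at 8.94 and 8.02, and Ifit3, which sequesters viral RNA with its IFIT partners, at 9.02 and 8.96, were also higher in G1 pair 1 than in the other G1 arrays but did not pass (limma adjusted p of 0.151, 0.148 and 0.0949).

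Of 9 tested leukocyte genes 5 passed the F-test of pairs (7 of 16 probes). Adgre1, which encodes the macrophage antigen F4/80, read 12.02 in KO and 12.68 in Wt cells of G1 pair 1 against 8.69 to 9.06 on the other 4 G1 arrays, and Fcer1g, an Fc receptor chain, read 9.28 and 12.27 against 4.36 to 4.59. Both passed (limma adjusted p of 0.00492 and 0.00104), as did Ptprc, Laptm5 and Lyz2, and Cd14, Tyrobp, Coro1a and Spi1 did not (limma adjusted p of 0.346, 0.286, 0.198 and 0.791). The probes of Lyz2 disagreed, and ILMN_1252076, whose levels are given above, did not pass (limma adjusted p = 0.0833). Tyrobp read 7.52 and Spi1 4.65 on KO_G1 replicate 1, and 10.18 and 6.50 on Wt_G1 replicate 1. Itgam at 4.63 and 4.57 and Nkg7 at 4.35 and 4.60 stayed near background on both arrays of G1 pair 1. G1 pair 1 was also the only G1 pair with Eif2s3y, so within G1 the sex of the cells and the pair cannot be told apart. The part of leukocyte RNA in the high Oas2, H2-D1, Oasl2, Parp14 and Ifit3 values was not tested. Without KO_G1 replicate 1 no gene of the set passed the F-test, nor without KO_G1 replicate 2, Wt_G1 replicate 1 or Wt_G1 replicate 2, and without KO_G1 replicate 3, Wt_G1 replicate 3, KO_cycling replicate 2 or Wt_cycling replicate 2 the count was 1.

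**Figure D4:**
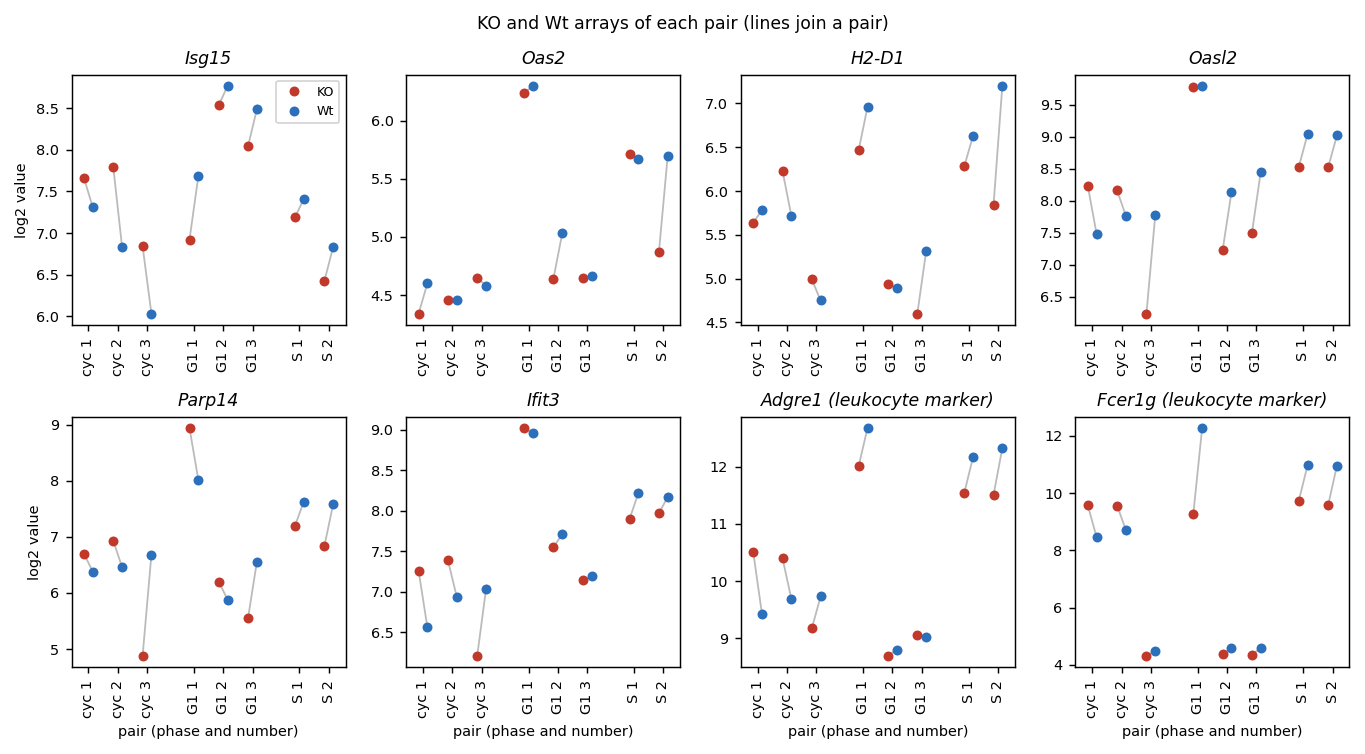
Points are log2 values of the KO and Wt array of each pair, joined by a line, with pairs ordered by phase and number. In G1 pair 1 Oas2, Oasl2, Parp14 and Ifit3 and the leukocyte markers Adgre1 and Fcer1g are high in both genotypes, while Isg15 is the lowest of the G1 pairs.

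The rest of the pathway was read from 4 further lists. Of the ligands, receptors and Janus kinases, 6 genes were tested. None passed between genotypes, and Ifngr2, a chain of the interferon gamma receptor, was lower in G1 than in cycling cells by -0.66 ± 0.18. Ifnar2, a chain of the type I receptor, was at least 1.22-fold higher in S than in cycling cells at probe ILMN_1225311. No cycling array detected that probe, and it was tested only through the S groups, so the filter itself favoured this difference. The other tested probes of Ifnar2 did not pass between phases. Of the 9 tested genes of the sensing pathway none passed between genotypes or phases, and Tlr4, the endotoxin receptor, passed the F-test of pairs. Of 17 other interferon-induced genes, Ly6e, which encodes a membrane protein that limits viral entry, was lower in KO cells. It read 8.37, 8.23 and 7.74 in KO_cycling against 9.35, 9.16 and 8.35 in Wt_cycling, 7.88, 8.77 and 8.82 in KO_G1 against 9.49, 9.39 and 9.34 in Wt_G1, and 8.38 and 8.44 in KO_S against 9.34 and 9.26 in Wt_S. Each KO array lay below its paired Wt array, and the mean difference was -0.88 ± 0.18 (limma adjusted p = 0.0208). Of the cell type markers, 1 of 9 fibroblast genes, 1 of 2 endothelial, 1 of 3 epithelial and 0 of 9 leukocyte genes passed between genotypes in the mean over phases, where 2.06% of all probes did. The KO minus Wt difference of the leukocyte genes was above 0 for 9 of 9 in cycling cells (median 0.42), for 1 of 9 in G1 (median -0.35) and for 0 of 9 in S (median -0.57), and none of them passed in a phase. Of all tested genes 50.4%, 48.6% and 53.3% were above 0 in these phases. The fibroblast receptor gene Pdgfra, the endothelial gene Eng and the keratin gene Krt14 were lower in KO cells by -1.32 ± 0.31, -1.17 ± 0.22 and -1.01 ± 0.15. Krt14 was detected on 5 arrays, all of Wt_G1 or Wt_S, and was tested only through those groups. The filter itself thus favoured its difference, which measured against the detection floor is at least 1.47-fold. The endothelial genes Pecam1, Cdh5, Kdr and Tie1 were detected on no array. The part of these marker genes in the genotype differences was not tested.

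Between G1 and cycling cells 5 of the same 17 genes passed (7 of 23 probes, where 19.8% of all probes did). Uba7, the enzyme that activates ISG15 for conjugation, was higher by 1.14 ± 0.21, and Ifi30, a lysosomal thiol reductase, by 1.09 ± 0.25. Lower in G1 were Ifi47, an immunity-related GTPase (-1.35 ± 0.20), Samhd1, which depletes nucleotides (-1.14 ± 0.16), and Tor3a (-0.46 ± 0.14). Between S and G1 cells Ifi47 (0.87 ± 0.22), Samhd1 (0.84 ± 0.18) and the galectin gene Lgals9 (0.67 ± 0.19) were higher in S. Of 11 tested immunoproteasome and presentation genes, Tap2, the partner of Tap1 in the peptide transporter (0.58 ± 0.16), and H2-T23 (0.71 ± 0.22) were higher in G1 than in cycling cells (2 of 14 probes), and none passed between genotypes.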

How the data were processed

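RNA of 16 cultures was hybridised once each to Illumina mouse bead arrays. The deposited table holds, for each of 25697 probes, an intensity averaged over beads and not normalised by the authors, per the file headers, and a detection p-value computed by the authors' software, per the file headers. BeadStudio 3.0 is named in the submitters' processing notes. A deposited value table, in linear intensity and normalised by the authors in a way not given in the sources used here, served as an alternative. Probe symbols came from the platform annotation, where 23978 probes had 1 symbol and 1719 none.

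Intensities were background-corrected from the detection p-values with an offset of 16, quantile normalised and put on the log2 scale (neqc of limma 3.58.1, R 4.3.3). A probe was tested if all arrays of some group, out of 6, had a detection p below 0.01, and was fitted with linear models over the 6 group means, with moderated variances and Benjamini-Hochberg adjustment over 12078 probes, and a probe passed at an adjusted p under 0.05. The mean over phases used genotype and number, read as the cell line, as a random block (correlation -0.0106, statmod 1.5.0). Eif2s3y and Xist show that number 2 in G1 is another line than number 2 in cycling and S, and the count was 0 without the block as well. Phase comparisons averaged the genotypes. Code was tested on simulated data.

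The design text ties each KO and Wt pair to 1 mother, and the replicate numbers were read as naming the pair. Within a phase, deviations of same-numbered arrays correlated at 0.189 to 0.388 in cycling, 0.357 to 0.423 in G1 and 0.0644 in S, and a fit with the pair as a block was run. The p-values measure the spread between these cultures. In phase comparisons the KO and Wt arrays of a pair counted as separate cultures, and no alternative fit had a pair term for phases. For a gene whose paired arrays vary together, the phase p-values can be too small. Bounds written as "at least" set the brighter group against, per array, the higher of its lowest detected value and its own value. Alternatives were median scaling, the authors' table, no background correction, other filters, blocks for pair, number, line and slide, and each array left out. Leaving out both arrays that stood apart was chosen from earlier results of these data. Eif2s3y detection as a covariate, whole pairs left out and the mean over phases without the block were added after seeing the data.

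The genes, their roles and the further lists were chosen with earlier results of these data known. Genes that passed are given on every array, up to 4 with the smallest p are given per genotype comparison, and of each further list at most 4 genes that passed per comparison, by size of difference. Tor3a, Thy1 and a leukocyte gene in the F-test, each 1 above that limit, were named after their values were seen. The array number per group limits precision.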

Additional observations from a re-analysis of the deposited data

Results flagged for a closer look

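In 4 of the 46 probes every KO array lay above its paired Wt array in cycling cells and below it in S, and the difference between these effects was not tested. The KO minus Wt difference in S minus that in cycling cells was -1.01 for Eif2ak2, -1.02 for Isg15, -1.66 for Ifi27l2b and -2.18 for Ccl5. These rest on 3 and 2 pairs, and 5.63% of all tested probes had the same pattern of signs. For Ifi27l2b no KO_S array detected the probe, with 5.07 and 5.30 on KO_S and 5.24 and 5.34 on Wt_S arrays.

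Among genes outside the tests, Ifitm1, an antiviral membrane protein, was detected at probe ILMN_1245129 on 1 of 8 KO arrays, KO_cycling replicate 2 at 5.65, and on 0 of 8 Wt arrays. The chemokine gene Cxcl9 was detected on 1 of 8 KO arrays, KO_G1 replicate 2 at 5.51, and on 0 of 8 Wt arrays.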

How the results depend on the processing

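Counts are of the 46 probes that passed. With the pair as a replicate block the mean genotype count was 1, against 0 without it, and no other genotype or interaction count changed. With the replicate number as a block over all arrays the cycling genotype count was 0. The F-test there was of the number over all phases in place of the pair within a phase, so its count of 0 is not one of pairs. With the line as a replicate block the S minus G1 count was 1. The cycling genotype count of 1 was also 0 under median scaling, the authors' table, no background correction, no filter, a filter on all 16 arrays and slide as a block. With slide as a block the counts were 3 for G1 minus cycling, 2 for S minus G1 and 0 for S minus cycling. With the filter on all 16 arrays they were 2 for S minus cycling and 1 for pairs, and under median scaling 0 for pairs. Without KO_G1 replicate 1 and Wt_cycling replicate 3 the genotype counts were 4 in the mean, 3 in cycling, 1 in G1 and 3 in S, the phase counts were 23, 14 and 16, the interaction of S and G1 gave 1 and pairs gave 0. Leaving out 1 array at a time gave 0 to 1 for the mean, 0 to 2 for cycling, 7 to 18 for G1 minus cycling, 1 to 9 for S minus G1, 2 to 11 for S minus cycling and 0 to 2 for pairs, and 0 in each for the G1 and S genotype differences and both interactions. Without G1 pair 1 and cycling pair 3 the genotype counts were 14 in the mean, 12 in cycling, 2 in G1 and 8 in S, the phase counts 25 for G1 minus cycling (43.5% of all probes passed), 29 for S minus G1 (48.7%) and 23 for S minus cycling (39.7%), the interactions 8 and 2, and pairs 0. That fit leaves G1 with Xist arrays only and cycling and S with Eif2s3y arrays only, so its differences with G1 cannot be told apart from the sex of the cells. With Eif2s3y detection as a covariate the S minus G1 count was 1, and the other counts moved by less than 1.5 times. Those 2 settings and the mean over phases with no replicate block, which gave 0, were added after seeing the data. The number and line blocks take 1 number as 1 line in every phase, against the Eif2s3y and Xist values. The cause was not tested. Of 26 single-gene results none reversed in 680 alternative values. The F-test results of pairs among them have no direction, so they could not reverse. The Rsad2, Mx2 and Irgm1 calls between G1 and cycling and the Tap1 call between S and G1 held in each alternative run that tested them. The filter on all 16 arrays left the Rsad2, Mx2 and Tap1 probes untested. Median scaling moved the median of all probes to 0.12 for KO minus Wt in cycling, -0.13 in G1 and 0.21 for S minus G1. A slide block was not available for the test of pairs. Probes near the detection floor give bounds only.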

Other observations

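Fcer1g was detected on 10 of the 16 arrays, and Eif2s3y, a gene of the Y chromosome, was detected on the same 10 and on none of the other 6, where Xist was detected. Both arrays of a pair fell on the same side in each of the 8 pairs.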
